A study of Rattus norvegicus with 2 samples.

Results

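The epithelial and mesenchymal identity markers are 45 genes by which epithelial cells are told from mesenchymal cells. The set holds 31 epithelial genes, which are keratins, junction proteins, surface proteins and epithelial regulators, and 14 mesenchymal genes, which are vimentin, mesenchymal cadherins, matrix and secreted proteins and transcription factors. Members were found by gene symbol among the probe sets annotated to a single gene, with a single value per gene, that of its brightest probe set by mean log2 signal. Of the 45 genes, 43 were on the array, 30 epithelial and 13 mesenchymal, among 14217 genes in all. Grhl2 and Snai2 had no probe set annotated to them alone.

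Epithelial cells adhere to each other through E-cadherin in adherens junctions, through claudins and occludin in tight junctions and through desmosomes, and their cytoplasm is braced by keratin filaments. In an epithelial-mesenchymal transition, transcription factors of the Snail, ZEB and Twist families repress such genes, while vimentin, fibronectin and other mesenchymal proteins are made. In prostate carcinoma, loss of E-cadherin is known to accompany high grade and spread.

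Affymetrix arrays were used to profile AT6.1, an established and metastatic rat prostate cancer cell line. The first group was clone 7, transfected with Ndrg-1 (N-myc downstream regulated gene-1, here Ndrg1) in the pcDNA3 vector, and the other was clone 9, transfected with the vector without an insert. Both grew in medium with 10% fetal calf serum under selection with 0.3 mg/mL G418. Each group was 1 clone and 1 array, without replicates. No p-value is therefore given, and clone, culture, array and insert cannot be told apart.

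The deposited values were probe set signals (intensities on a linear scale), with median signals of 31.1 in the Ndrg-1 clone and 31.2 in the vector clone. Signals of the vector clone were multiplied by 1.003 and are printed after that step. The threshold used here was the pooled median of 31.04, taken over the signals of both arrays together. A signal under the pooled median was set to it before a log2 ratio (Ndrg-1 clone over vector clone) was taken, so a gene under it in 1 array has a bound. Genes under it in both arrays have no ratio. A difference was counted at 2-fold. The error at hand was how far probe sets of the same gene disagreed, with an SD of 0.23 on the log2 scale, 0.46 for 2 SD, over 5336 probe sets of 2296 genes. It leaves out variation between clones, cultures and arrays. The transfected gene itself had signals of 1353 in the Ndrg-1 clone and 1066 in the vector clone on its brighter probe set (log2 ratio 0.34), and 154 and 182 on its dimmer one (log2 ratio -0.24), so Ndrg1 did not reach 2-fold.

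In both clones, most mesenchymal markers were above the pooled median and most epithelial markers were under it. Of the 13 mesenchymal genes, 10 were above the pooled median in the Ndrg-1 clone and 10 in the vector clone, and these were the same 10 genes. Of the 30 epithelial genes, 6 were above it in the Ndrg-1 clone and 7 in the vector clone. Over all genes, 62.3% were above it in the Ndrg-1 clone and 62.4% in the vector clone. On only 13 genes, the mesenchymal share was 76.9% in both arrays, above that of all genes. The epithelial shares of 20.0% in the Ndrg-1 clone and 23.3% in the vector clone were lower. Among 48 other mesenchymal genes on the array the shares were 52.1% and 47.9%, under those of all genes. A share above that of all genes was thus not general to mesenchymal genes. Among 48 other epithelial genes the shares were 33.3% and 39.6%. How many epithelial markers pass depends on the threshold. At the 25th percentile of signals, 17 of the 30 epithelial markers were above it in the Ndrg-1 clone (56.7%, against 81.8% of all genes) and 21 in the vector clone (70.0%, against 82.0%), with 13 and 12 of the 13 mesenchymal markers. By gene, 16 of the 43 markers were above the pooled median in both arrays (60.2% of all genes), 17 in at least 1 (64.6% of all genes) and 26 in neither (35.4% of all genes). Signals of different probe sets do not measure the relative abundance of different transcripts, so a probe set under the pooled median may be a dim one for a transcript that is present. Fewer cells with a transcript and less of it per cell cannot be told apart in these bulk samples.

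**Figure D1:**
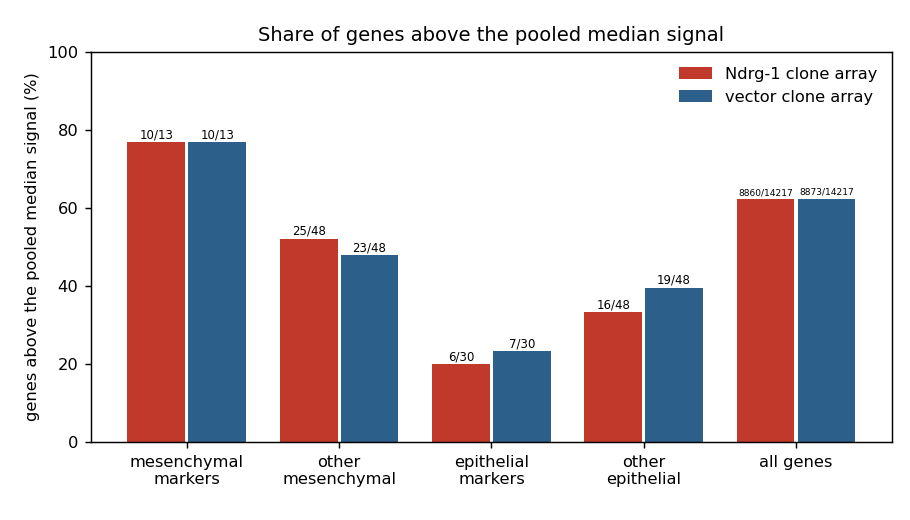
Bars give the percentage of genes above the pooled median signal in the Ndrg-1 clone and the vector clone, for the mesenchymal and epithelial markers, for the further mesenchymal and epithelial genes, and for all genes, with counts above the bars. The mesenchymal markers stand at 76.9% in both arrays, the epithelial markers at 20.0% and 23.3%, and all genes at 62.3% and 62.4%.

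Among the keratins, the intermediate filament proteins of epithelia, Krt7 and Krt8 were above the pooled median and the other 4 were under it in both arrays. Krt7, a keratin of simple epithelia, had signals of 204 in the Ndrg-1 clone and 256 in the vector clone (log2 ratio -0.32). Krt8, which pairs with Krt18 in simple and luminal epithelia, had 38.7 in the Ndrg-1 clone and 46.4 in the vector clone (log2 ratio -0.26), just above the pooled median. Its partner Krt18 had 2.74 and 5.08, and Krt19, another keratin of simple epithelia, had 6.32 and 8.02. The basal keratins Krt5 and Krt14 had 11.02 and 18.4, and 5.59 and 3.02, in the Ndrg-1 and the vector clone. Keratin filaments form from a type I and a type II keratin. All 3 keratins of type I on the list (Krt14, Krt18 and Krt19) were under the pooled median in both arrays, while Krt7 and Krt8, which are type II like Krt5, were above it. Other type I keratins outside the list did pass. Krt23 was above the pooled median in both arrays (33.0 in the Ndrg-1 clone and 48.5 in the vector clone). Krt20 (25.7 and 41.6) and Krt17 (32.9 and 27.6) were above it in a single array, and Krt15 (4.38 and 23.1) in neither.

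The adherens junction was represented by its cytoplasmic proteins but not by the cadherins of the list. Cdh1, which encodes E-cadherin, had signals of 2.38 in the Ndrg-1 clone and 2.01 in the vector clone on its brighter probe set, and 0.69 and 1.37 on the other. Cdh3, which encodes P-cadherin, had 13.4 and 19.3. Ctnna1, the alpha-catenin that links the cadherin complex to actin, had 2166 in the Ndrg-1 clone and 2492 in the vector clone (log2 ratio -0.20). Ctnnd1, the catenin that binds the membrane-near part of the cadherin tail and keeps cadherins at the surface, had 92.6 and 70.2 (log2 ratio 0.40), the highest ratio among the epithelial members. Both catenins are made in many cell types besides epithelia.

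In the tight junction group, Tjp1 was the only listed gene above the pooled median in both arrays. Tjp1, the zonula occludens scaffold that also sits at junctions of non-epithelial cells, had signals of 1071 in the Ndrg-1 clone and 1225 in the vector clone (log2 ratio -0.19). Its second probe set was under the pooled median, with 2.51 and 19.6. Ocln, which encodes occludin, had 3.79 and 9.19 on its brighter probe set and 3.16 and 2.07 on the other. The claudins Cldn3, Cldn4 and Cldn7, which form the seal between epithelial cells, had 6.48, 13.1 and 2.76 in the Ndrg-1 clone, and 8.67, 21.1 and 3.12 in the vector clone. F11r, a junctional adhesion molecule, had 16.8 and 24.1. All of these transmembrane genes were under the pooled median in both arrays. Of the claudins among the other epithelial genes, Cldn12 (746 in the Ndrg-1 clone and 656 in the vector clone) was above it in both. Cldn2 (1.85 and 11.1) and Cldn5 (22.0 and 13.3) were above it in neither.

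Cldn1, which encodes a claudin of simple and stratified epithelia, was the only member above the pooled median in a single array. Its brightest probe set had signals of 15.4 in the Ndrg-1 clone and 41.3 in the vector clone, which puts the log2 ratio at -0.41 or lower. Its 2 further probe sets had 2.39 and 28.4, and 0.48 and 11.5, in the Ndrg-1 and the vector clone. All 3 probe sets were thus lower in the Ndrg-1 clone, with both arrays under the pooled median on 2 of them. With a floor at the 25th percentile of signals in place of the pooled median, Cldn1 was at -1.42, past 2-fold. At that floor 463 of the 14217 genes on the array were at least 2-fold lower.

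None of the 6 desmosomal genes of the list was above the pooled median in either array. Desmosomal genes outside the list differed. Pkp1 (380 in the Ndrg-1 clone and 312 in the vector clone) and Ppl (1013 and 1555) were above the pooled median in both arrays. Evpl (4.82 and 10.9) and Perp (9.26 and 10.4) were above it in neither. Signals of the 6 genes, which encode the plaque protein Dsp, the desmosomal cadherins Dsc2 and Dsg2, and the armadillo proteins Jup, Pkp2 and Pkp3, lay between 2.57 and 19.1 in the Ndrg-1 clone and between 1.83 and 17.9 in the vector clone. The highest in the Ndrg-1 clone was Dsp, with 19.1 against 12.8 in the vector clone. The highest in the vector clone was Pkp3, with 3.30 in the Ndrg-1 clone against 17.9 in the vector clone, and with the floor at the 25th percentile its log2 ratio was -1.22 or lower. The gap junction gene Gja1, which encodes the connexin that is most widely made in mesenchymal as well as epithelial cells, had 2509 in the Ndrg-1 clone and 2582 in the vector clone (log2 ratio -0.04). A second probe set of Gja1 was above the pooled median at 58.5 and 70.3 (log2 ratio -0.26), and its remaining probe set was under it at 10.7 and 12.3.

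The 5 listed surface and protease genes and Esrp1, the only listed regulator on the array, were under the pooled median in both arrays. Outside the list, the regulators Klf5 (273 in the Ndrg-1 clone and 246 in the vector clone) and Grhl1 (32.1 and 45.8) were above it in both. So was the surface gene Sdc1 (831 and 702). Elf3 (16.9 and 23.3), Ehf (0.84 and 0.64), Grhl3 (2.54 and 1.26) and Prss8 (6.79 and 9.04) were above it in neither. Epcam, the epithelial cell adhesion molecule, had 8.61 in the Ndrg-1 clone and 3.70 in the vector clone. The membrane mucin Muc1 had 25.3 and 17.7, and St14, the membrane protease matriptase, had 22.2 and 15.8. Its inhibitors Spint1 and Spint2 had 11.5 and 3.08 in the Ndrg-1 clone, and 11.3 and 5.86 in the vector clone. Esrp1, the splicing regulator that sets epithelial isoforms, had 5.82 and 13.8.

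Of the mesenchymal structural and secreted genes, those for vimentin, fibronectin, galectin and SPARC were far above the pooled median in both clones. Vim, the mesenchymal intermediate filament, had signals of 4344 in the Ndrg-1 clone and 5819 in the vector clone (log2 ratio -0.42). Lgals1, which encodes the secreted lectin galectin, had 3970 and 5348 (log2 ratio -0.43). Both genes were among the 100 brightest, of which all 100 had a ratio below 0 (median log2 ratio -0.38). After quantile normalization Vim was at -0.0024 and Lgals1 at -0.03, and the part of this trend with brightness in their ratios was not tested further. Fn1, which encodes fibronectin, had 2240 in the Ndrg-1 clone and 2556 in the vector clone (log2 ratio -0.19). Sparc, a matrix glycoprotein, had 950 and 905 (log2 ratio 0.07), and its second probe set had 938 and 795 (log2 ratio 0.24). Fap, the fibroblast activation protease, was under the pooled median with 19.6 and 16.5.

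Fstl1, a secreted glycoprotein that binds ligands of the TGF-beta family, had the highest ratio of the 17 measured members. Its signals were 458 in the Ndrg-1 clone and 275 in the vector clone (log2 ratio 0.74, or 1.67-fold). The 2 further probe sets had 322 and 199 (log2 ratio 0.69), and 179 and 103 (log2 ratio 0.80), in the Ndrg-1 and the vector clone. All 3 probe sets were higher in the Ndrg-1 clone by similar ratios, all beyond 2 SD of the disagreement between probe sets and all short of 2-fold.

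Each of the 5 listed mesenchymal transcription factor genes on the array was above the pooled median in both clones, against 60.2% of all genes. Transcription factor genes outside the list differed. Tcf4 (587 in the Ndrg-1 clone and 617 in the vector clone) was above the pooled median in both arrays. Foxc2 (34.9 and 30.2) and Sox4 (32.3 and 17.6) were above it in the Ndrg-1 clone only. Twist2 (0.96 and 0.65), Tcf3 (19.5 and 23.7) and Hmga2 (15.3 and 16.03) were above it in neither. Snai1, a zinc finger repressor of Cdh1, had signals of 90.6 in the Ndrg-1 clone and 71.7 in the vector clone (log2 ratio 0.34). Twist1, a basic helix-loop-helix factor, had 273 and 323 (log2 ratio -0.24), and its second probe set had 83.7 and 115 (log2 ratio -0.46). Prrx1, a homeobox factor of limb and other mesenchyme, had 221 and 243 (log2 ratio -0.13), with 53.1 and 67.0 on its second probe set (log2 ratio -0.33). The 2 ZEB repressors differed in the sign of their ratios. Zeb1 had 355 in the Ndrg-1 clone and 477 in the vector clone on its single probe set (log2 ratio -0.42, or 0.12 when the arrays were scaled to the hybridisation spikes). Zeb2 had 229 in the Ndrg-1 clone and 147 in the vector clone (log2 ratio 0.64, or 1.56-fold) on its brightest probe set. The 4 further probe sets of Zeb2 were also higher in the Ndrg-1 clone, with log2 ratios of 0.43, 0.25, 0.09 and, with the vector clone under the pooled median, at least 0.24. The ratio of the brightest probe set was beyond 2 SD and those of the 3 others measured in both arrays were within it, while the bound does not show on which side of 2 SD the last lies.

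The mesenchymal cadherins were under the pooled median, as Cdh1 and Cdh3 were. Cdh2, which encodes N-cadherin, had signals of 15.2, 9.19 and 5.45 on its 3 probe sets in the Ndrg-1 clone, and 7.40, 4.90 and 0.97 in the vector clone. Cdh11, the cadherin of mesenchyme and osteoblasts, had 30.97, 4.06 and 2.84 in the Ndrg-1 clone, and 8.23, 6.65 and 0.62 in the vector clone. The brightest Cdh11 signal, that of 30.97 in the Ndrg-1 clone, lay just under the pooled median of 31.04. With the floor at the 25th percentile that probe set had a log2 ratio of 1.91, while the other 2 probe sets were under that floor in both arrays. All 3 probe sets of Cdh2 were higher in the Ndrg-1 clone, at signals under the pooled median in both. Among all 16 genes on the array with a cadherin symbol, 14 were under the pooled median in both arrays, against 35.4% of all genes. This count was made after the values were seen. The exceptions were Cdh15, with 32.5 in the Ndrg-1 clone and 30.99 in the vector clone, and Cdh17, with 26.5 and 45.8. The members nearest the pooled median on either side were Krt8, at 38.7 in the Ndrg-1 clone, and Cdh11.

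**Figure D2:**
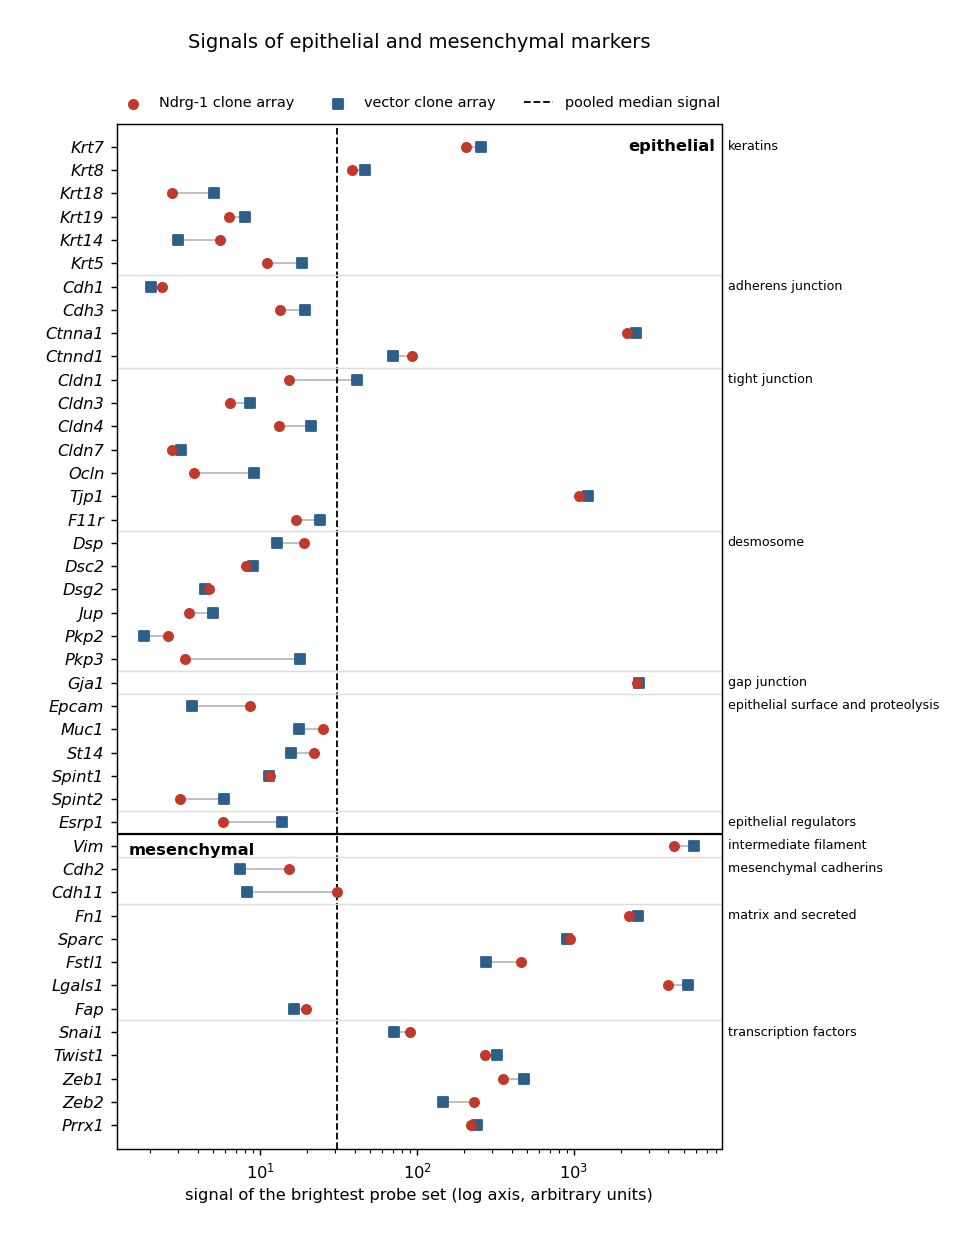
Each row is 1 marker gene, with the signal of its brightest probe set (log axis, arbitrary units) in the Ndrg-1 clone as a circle and in the vector clone as a square, in rows grouped by role. The dashed line is the pooled median of 31.04; all 6 desmosomal genes and all 5 surface and protease genes lie left of it, and all 5 mesenchymal transcription factors lie right of it.

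The promoters of the epithelial genes under the pooled median are shown because Snai1, Zeb1 and Zeb2, which were above it in both arrays, are known to bind the E-box hexamer CAGGTG. The hexamer, or its reverse complement CACCTG, was sought on both strands in windows of 300 bases, from 250 bases before to 50 bases after each gene's start, in RefSeq's annotation of the rat build GRCr8. A single window was used per gene, and any other start of a gene was not searched. A window was at hand for 28 of the 45 members. Of the 23 epithelial members under the pooled median in both arrays, 14 had a window, and Cdh1 was not among them. Of these 14 windows, 13 (92.9%) held the hexamer. Among 5 epithelial members above the pooled median in at least 1 array, 1 window held the hexamer, that of Krt8. Among 8 mesenchymal members above the pooled median, 3 windows did (Snai1, Sparc and Zeb1). Over all genes on the array, the hexamer was in 950 of 3926 windows (24.2%) of genes under the pooled median in both arrays and in 1140 of 7280 windows (15.7%) of genes above it in both, and in 18.7% of all 27457 windows. The median GC content of the windows was 66.2% for the 14 epithelial members under the pooled median and 50.3% for the 5 above it. For the 8 mesenchymal members above it, the median was 62.8%. Over all genes it was 56.7% under the pooled median in both arrays and 61.3% above it in both. The part of GC content in the shares was not tested. Members and hexamer were chosen with earlier results of these data known, and the list holds genes of a kind such factors repress. The share is therefore no test of repression. A match is a description of letters and shows no binding.

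The 250 bases before the start are given for 3 epithelial genes under the pooled median with the hexamer in capitals, then for Krt18, the 1 such gene whose window lacked it, and for Gja1 and Vim, which were above the pooled median. The Cldn7 stretch, chr10:55188420-55188669 (plus strand), holds 4 matches, at 186, 147, 28 and 17 bases before the start. The Spint2 stretch, chr1:93708092-93708341 (minus strand), holds 3, at 132, 113 and 68 bases before the start, and the Epcam stretch, chr6:12649679-12649928 (minus strand), holds 1, at 165 bases before the start. The others are Krt18 at chr7:135035918-135036167 (plus strand), Gja1 at chr20:36302314-36302563 (plus strand) and Vim at chr17:81577011-81577260 (plus strand), all written 5′ to 3′ on the strand of the gene.
Cldn7: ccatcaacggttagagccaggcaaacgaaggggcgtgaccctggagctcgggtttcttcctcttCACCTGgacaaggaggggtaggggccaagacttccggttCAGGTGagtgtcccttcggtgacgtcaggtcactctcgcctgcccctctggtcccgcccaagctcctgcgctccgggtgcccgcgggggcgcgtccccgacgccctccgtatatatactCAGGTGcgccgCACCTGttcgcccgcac
Spint2: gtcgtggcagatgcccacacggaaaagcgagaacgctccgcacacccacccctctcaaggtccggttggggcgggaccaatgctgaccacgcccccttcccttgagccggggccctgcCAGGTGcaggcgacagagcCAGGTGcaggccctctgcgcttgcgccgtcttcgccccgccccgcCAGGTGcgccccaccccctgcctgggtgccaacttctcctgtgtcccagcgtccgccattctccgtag
Epcam: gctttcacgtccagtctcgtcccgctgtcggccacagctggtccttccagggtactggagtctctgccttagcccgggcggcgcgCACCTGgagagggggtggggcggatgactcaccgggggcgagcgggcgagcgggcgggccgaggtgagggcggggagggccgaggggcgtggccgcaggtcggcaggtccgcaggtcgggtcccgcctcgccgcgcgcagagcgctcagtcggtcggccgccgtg
Krt18: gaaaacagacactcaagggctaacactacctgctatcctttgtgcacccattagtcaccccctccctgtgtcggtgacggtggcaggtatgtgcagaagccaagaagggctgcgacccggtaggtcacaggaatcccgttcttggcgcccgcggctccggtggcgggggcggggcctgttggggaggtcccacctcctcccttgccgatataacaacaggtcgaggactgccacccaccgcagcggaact
Gja1: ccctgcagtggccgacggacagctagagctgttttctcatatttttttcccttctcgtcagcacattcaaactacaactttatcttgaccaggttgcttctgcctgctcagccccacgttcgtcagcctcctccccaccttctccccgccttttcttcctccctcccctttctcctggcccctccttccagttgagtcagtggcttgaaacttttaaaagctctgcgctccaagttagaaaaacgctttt
Vim: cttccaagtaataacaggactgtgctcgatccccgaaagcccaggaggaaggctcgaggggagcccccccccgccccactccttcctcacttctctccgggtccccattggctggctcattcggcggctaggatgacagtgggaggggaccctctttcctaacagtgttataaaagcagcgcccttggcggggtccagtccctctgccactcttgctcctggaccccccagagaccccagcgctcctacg

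The Cldn7 window held 1 more match, across the start itself. Matches also lay in the windows of the occludin gene Ocln (137 and 68 bases before the start), the mucin gene Muc1 (232 and 72) and the desmosomal cadherin gene Dsg2 (107 bases before the start, with a second match just behind the start). Single matches lay in those of Cldn3 (248), Dsc2 (23), Dsp (85), F11r (130), Jup (101), Krt5 (129) and Spint1 (91). Thus the hexamer was found for 4 of the 6 desmosomal genes, and the same 4 genes, Dsp, Dsc2, Dsg2 and Jup, were those with a window.

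**Figure D3:**
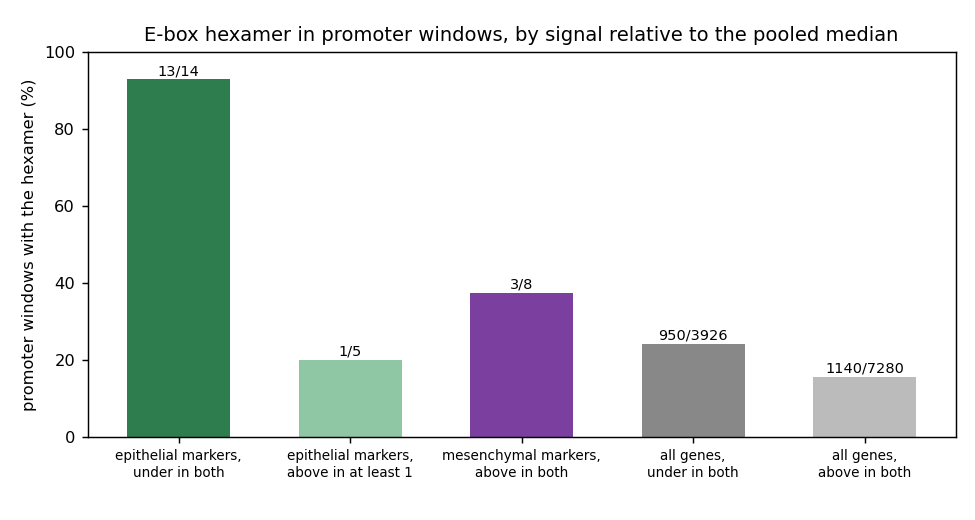
Bars give the percentage of promoter windows of 300 bases that hold the E-box hexamer on either strand, with counts above the bars, for epithelial and mesenchymal markers and for all genes on the array by their signal relative to the pooled median. The epithelial markers under it in both arrays stand at 13 of 14, against 950 of 3926 for all genes under it.

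Between the clones, none of the 17 measured members reached 2-fold in either direction. Over all 9181 genes above the pooled median in at least 1 array, 3.13% did (1.62% higher and 1.5% lower), so a count of 0 among 17 lies near that background. Log2 ratios ran from -0.41 or lower (Cldn1) to 0.40 (Ctnnd1) in the 7 epithelial genes, with a median of -0.20, and from -0.43 (Lgals1) to 0.74 (Fstl1) in the 10 mesenchymal genes, with a median of -0.16. The median of all measured genes was 0.0027. When the arrays were scaled to the hybridisation spikes, which moved the median of all measured genes to 0.53, the epithelial median was 0.34 and the mesenchymal median 0.35, so signs of single ratios here are relative to the median gene. Ratios were below 0 for 6 of the 7 epithelial and 6 of the 10 mesenchymal genes, against 49.6% of all measured genes. The brightest 10% of genes above the pooled median in both arrays, to which Vim, Lgals1, Fn1, Ctnna1 and Gja1 belong, had a median log2 ratio of -0.15, with 644 of its 856 genes below 0. Beyond 2 SD of the disagreement between probe sets were 2 of the 17 members, Fstl1 and Zeb2, while 16.9% of all measured genes were beyond it. Cldn1 has only a bound, which does not place it.

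**Figure D4:**
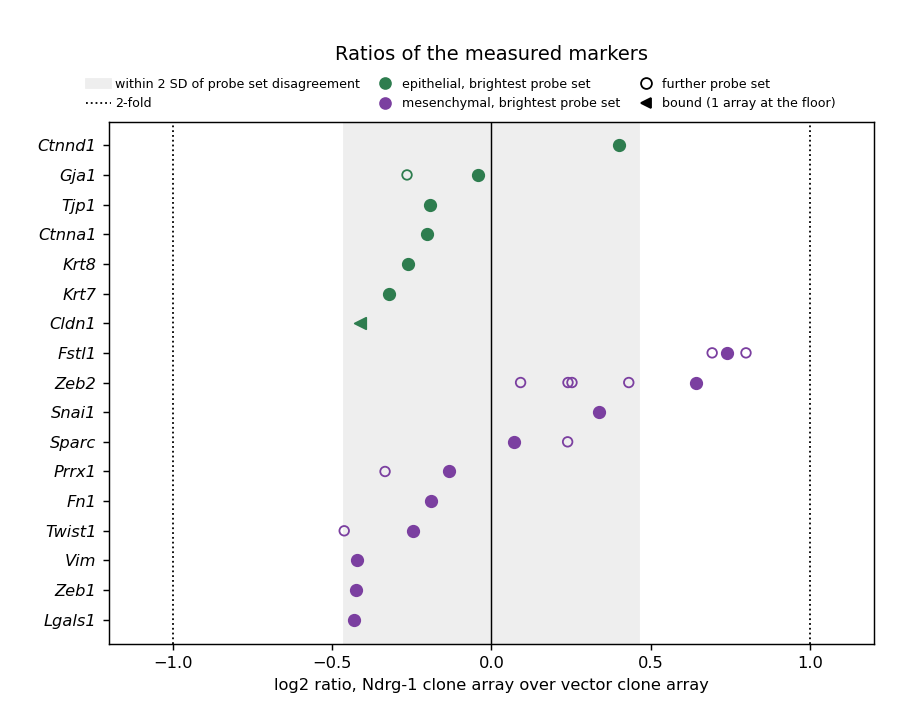
Log2 ratios (Ndrg-1 clone over vector clone) of the 17 markers above the pooled median in at least 1 array, with filled symbols for the brightest probe set, open circles for further probe sets (that of Zeb2 at 0.24 is a lower bound) and a triangle for the bound of Cldn1. The shaded band marks 2 SD of the disagreement between probe sets (0.46) and the dotted lines mark 2-fold; Fstl1 and Zeb2 lie right of the band on their brightest probe sets.

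Further genes of the same kinds were also more often above the pooled median on the mesenchymal than on the epithelial side, though both shares were lower than that of all genes. These lists, like the members, were chosen with earlier results of these data known. Of 48 other epithelial genes on the array, 16 were above the pooled median in the Ndrg-1 clone and 19 in the vector clone. Of 48 other mesenchymal genes, 25 and 23 were above it. Map7, which encodes a microtubule-binding protein of epithelia, had 17.4 in the Ndrg-1 clone and 74.8 in the vector clone, at least 2.41-fold lower, and its 2 other probe sets were under the pooled median in both arrays. It was the only one of 21 measured genes of the epithelial list at 2-fold. None of the 25 measured genes of the mesenchymal list reached 2-fold. Over all measured genes, 3.13% did. The 2 farthest from 0 were Tgfb2, a TGF-beta ligand (93.2 in the Ndrg-1 clone and 47.9 in the vector clone, log2 ratio 0.96), and Fbln1, a matrix protein (149 and 246, log2 ratio -0.72). The list medians were 0.0025 for other epithelial and -0.15 for other mesenchymal genes.

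Among cytoplasmic partners of cadherins, 9 of 10 were above the pooled median in at least 1 array, against 64.6% of all genes. Ctnnb1, Ctnnal1, Pkp1, Pkp4 and Afdn were also in the list of other epithelial genes, so the 2 lists are not separate. Ctnnd2, the catenin related to Ctnnd1 that is best known from neurons, had 91.6 in the Ndrg-1 clone and 14.3 in the vector clone on its single probe set, at least 2.95-fold higher. It was the only one of the 9 at 2-fold, against 3.13% of all measured genes. Of the 9, 7 had a ratio above 0, against 4622 of all 9181 measured genes. Ctnnb1, the beta-catenin that joins cadherins to alpha-catenin, was chosen after its values were seen. It had 2282 in the Ndrg-1 clone and 2278 in the vector clone. The median log2 ratio of the list was 0.05.

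Of the lists for prostate lineages and other cell types, those for luminal, neuroendocrine, leukocyte, endothelial and neural genes had most genes under the pooled median in both arrays, while 5 of 10 basal and 6 of 11 muscle genes were above it in at least 1 array, against 64.6% of all genes. Of 9 luminal genes, 2 were above it in at least 1 array, Fkbp5 (1113 in the Ndrg-1 clone and 1714 in the vector clone, log2 ratio -0.62) and Tmprss2 (35.4 and 18.8, log2 ratio at least 0.19). The prostate factor Hoxb13 (3.03 and 2.46), the pioneer factor Foxa1 (6.70 and 6.57) and the secretory product Pbsn (0.79 and 0.75) were under it, so these luminal markers of the labelled tissue were not above the threshold. Of 10 basal genes, 5 were above the pooled median in at least 1 array, but only 2 in both. Krt15, Krt17, Itgb4, Itga6 and Lamb3 were also in the list of other epithelial genes. Farthest from 0 were the hemidesmosomal integrin Itgb4 (14.9 and 46.6, log2 ratio -0.59 or lower) and the caveola protein gene Cav1 (3213 and 4048, log2 ratio -0.33). The basal factor Tp63 was under the pooled median (21.2 and 22.0). Of 10 neuroendocrine genes, 2 were above it, Syp (45.8 and 72.3, log2 ratio -0.66) and Eno2 (734 and 641, log2 ratio 0.20).

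Of 13 leukocyte genes, 4 were above the pooled median in at least 1 array, with Cd68 (206 in the Ndrg-1 clone and 114 in the vector clone, log2 ratio 0.84) and Cd14 (210 and 309, log2 ratio -0.56) farthest from 0. The pan-leukocyte gene Ptprc was under it at 2.72 and 3.26. Of 11 endothelial genes, 2 were above it, Egfl7 (145 and 88.3, log2 ratio 0.72) and Esam (45.8 and 15.03, log2 ratio at least 0.56), with Pecam1 under it at 3.63 and 12.2. Of 11 muscle genes, 6 were above it, and the actin-binding Synpo2 was 3.35-fold lower in the Ndrg-1 clone (232 against 777 in the vector clone). A second Synpo2 probe set had 106 and 414 (log2 ratio -1.97), one had 16.1 and 32.8 (log2 ratio -0.08 or lower), and one was under the pooled median in both. Of 9 neural genes, 2 were above it, and Map2, a neuronal microtubule protein, was 3.997-fold lower (126 in the Ndrg-1 clone against 505 in the vector clone).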

How the data were processed

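Biotin-labelled RNA of 2 AT6.1 clones was measured, 1 array each. The deposited values are 1 intensity per probe set, and GCOS 1.3 is the software named in the submitters' processing notes. How probe sets were summarised and scaled is not given in the sources used here, and no detection calls were used. Trimmed means (2% off each end) were 150.0 in both arrays, so the intensities had been scaled before deposit.

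Of 31042 probe sets without controls, 20826 carried 1 gene symbol in the platform annotation, and 20758 of these were matched to RefSeq (GRCr8) by gene ID, which gave current symbols. No build is named for the array, so probe sets carry no coordinates; the only coordinates given are those of RefSeq promoter windows on GRCr8. Signals of the vector clone were shifted by 0.0050 (log2) so that the median ratio of probe sets above the overall median was 0. With 1 array per group no test was possible, and their number limits the precision. The procedure was tested on simulated data, with changes put only into genes above the median signal and no trend with brightness. That simulation does not cover genes under the median or such a trend. Members, lists, the hexamer and tests were chosen with earlier results of these data known. Named genes were all members above the pooled median with all their probe sets, the main ones under it, and of other lists the up to 4 genes per direction at 2-fold or the 2 farthest from 0. Named outside this rule, with values known, are Cdh15, Cdh17, Ctnnb1, Hoxb13, Foxa1, Pbsn, Tp63, Ptprc, Pecam1, Krt15, Krt17, Krt20 and Krt23. Outside the rule too, with values known, are the further desmosomal, claudin, surface, protease and regulator genes and transcription factors named beside the members. Genes named as shared between lists are also outside it. Alternatives were 5 scalings, 2 floors, a pseudocount of 16, medians over probe sets, and no _x_at or _s_at probe sets. Scripts ran in Python 3.11.15 with pandas 2.3.3, numpy 2.4.6, statsmodels 0.14.6 and matplotlib 3.10.9.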

Additional observations from a re-analysis of the deposited data

How the results depend on the processing

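No paired analysis was possible because each group has 1 array. Of 165 log2 ratios of single members under the alternatives, 141 moved by less than the SD of probe set disagreement and 24 by more, of which 17 came from scaling to the hybridisation spikes. All 18 of these spike probe sets had lower signals in the Ndrg-1 clone (median -0.54 on the log2 scale), while 23 of 24 poly-A spike probe sets were higher (0.22), and 12 of 17 members changed sign in at least 1 alternative. Scaling to the hybridisation spikes put the median of all genes at 0.53, that of the epithelial members at 0.34 and that of the mesenchymal members at 0.35, with 2 mesenchymal members, Fstl1 (1.28) and Zeb2 (1.19), at least 2-fold higher. Of the 14217 genes on the array it gave 732 higher and 43 lower, against 149 and 138, so calls of higher genes were more frequent over all genes too. Scaling to the poly-A spikes gave 101 higher and 240 lower, and put the median of all genes at -0.21. With the floor at the 25th percentile, 17 epithelial members were above it in the Ndrg-1 clone and 21 in the vector clone (81.8% and 82.0% of all genes), with 13 and 12 mesenchymal members. Then 2 epithelial members, Cldn1 and Pkp3, were at least 2-fold lower and 1 mesenchymal member, Cdh11, higher. Of the 14217 genes on the array, 444 were then higher and 463 lower, so such calls were more frequent over all genes too. With the floor at the 75th percentile, 4 epithelial members were above it in each array (38.7% and 38.3% of all genes), with 9 and 8 mesenchymal members, and 23 genes were higher and 34 lower. With the median over probe sets, 1 epithelial member, Tjp1, was 2-fold lower (-1.58), since its dim probe set then counts as much as its bright one. Removal of the lowess trend moved Vim to -0.16 and Lgals1 to -0.18. The cause of the other changes was not tested.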
